A study of Mus musculus with 2 samples.

Results

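The 39 genes of the urea cycle and of amino acid catabolism were followed in liver RNA of S1a/ETP and S1a/Ctrl mice. They were chosen by symbol as textbook enzymes of these routes, and all 39 were found among the 35275 genes of the deposited table. They fall into 5 routes, with 6 genes of the urea cycle, 9 of aromatic, 8 of sulfur, 5 of histidine and serine, and 11 of other amino acids. S1a/ETP mice carried Alb-Cre, Rosa rtTA, TRE-ETP and S1a, each on 1 allele, and S1a/Ctrl mice carried Alb-Cre, Rosa rtTA and S1a without TRE-ETP. The S1a transgene is a truncated, constitutively active human SREBP1a behind the rat *PEPCK* promoter, and TRE-ETP encodes endotrophin (ETP), the cleaved end of a collagen VI chain, which doxycycline switches on in cells where albumin-driven Cre has acted. Both groups were male FVB mice fed 200 mg/kg doxycycline for 10 months, with a labelled age of 12 months. Each group is a single pool of RNA from 3 mice, and with 1 library a side there is no spread between mice to measure and no p-value was computed.

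The liver disposes of most dietary nitrogen. Amino groups are collected by transaminases and by glutamate, ammonia is joined to bicarbonate in the mitochondria, and the urea cycle turns it into urea between the mitochondria and the cytosol. The carbon skeletons of tyrosine, tryptophan, methionine, histidine, serine, proline and the branched chain amino acids go through routes of their own, several of which run mainly in hepatocytes. Hepatocytes near the portal vein carry out most ureagenesis and serine and histidine breakdown, whereas those around the central vein capture leftover ammonia as glutamine and express ornithine aminotransferase.

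Expression is given as FPKM, fragments scaled to gene length and to library depth. The values could be turned back into reads, since 100% of them came out whole within 0.01 reads, and the libraries held 14538808 reads in S1a/ETP and 19245078 in S1a/Ctrl. Ratios are on a log2 scale, S1a/ETP over S1a/Ctrl, with 0.1 added to both FPKM values, so that a negative ratio is lower in S1a/ETP. Square brackets hold the 95% interval of a ratio (exact, Clopper-Pearson) given by these reads, which covers counting error only. The 39 genes had between 168 and 36429 reads in S1a/ETP and between 362 and 51277 in S1a/Ctrl. The albumin gene *Alb*, a marker of hepatocytes, was at 31035 FPKM in S1a/ETP and 31534 FPKM in S1a/Ctrl, and none of 5 kidney markers had a read in either pool. In whole liver RNA, fewer hepatocytes and less RNA per hepatocyte cannot be told apart.

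Amino acid enzymes were among the most abundant liver transcripts, and most were somewhat lower in the S1a/ETP pool. Together the 39 genes took 2.11% of the reads in S1a/ETP and 2.36% in S1a/Ctrl. Their median level was 109 FPKM in S1a/ETP and 122 FPKM in S1a/Ctrl, and 17 of them in S1a/ETP and 18 in S1a/Ctrl ranked among the 500 most abundant genes. The value was lower in S1a/ETP for 29 genes and higher for 10, with a median log2 ratio of −0.16. Over the 4228 genes averaging 10 FPKM or more, 2054 were lower, 2174 were higher and the median was 0.0091. The 1263 genes averaging 50 FPKM or more, nearer in level to the members, leaned the same way as the members, with 735 lower, 528 higher and a median of −0.047, against 24 lower, 7 higher and a median of −0.16 for the 31 members at that level. The counting interval lay below 0 for 26 of the 39 genes, above 0 for 9, and held 0 for *Asl*, *Sdsl*, *Gls2* and *Bckdhb*. Abundant genes leave 0 at small ratios. Of the 1263 genes averaging 50 FPKM or more, the interval lay below 0 for 596 and above 0 for 382. For the 31 members at that level the counts were 21 and 7. The direction of the median depended on the scale, since it was 0.14 after the 9 hepatocyte markers were set to a median ratio of 0, a step that raised all ratios by 0.30. Those markers ranged from −1.85 for *Serpina1c* to 0.14 for *Fgb*, with *Alb* at −0.023. As deposited, the median of the 39 genes was 0.17 below that of the genes averaging 10 FPKM or more. The gap was smaller against genes averaging 50 FPKM or more. A scaling moves all ratios by nearly the same amount, so trying other scalings could not change these gaps.

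**Figure D1:**
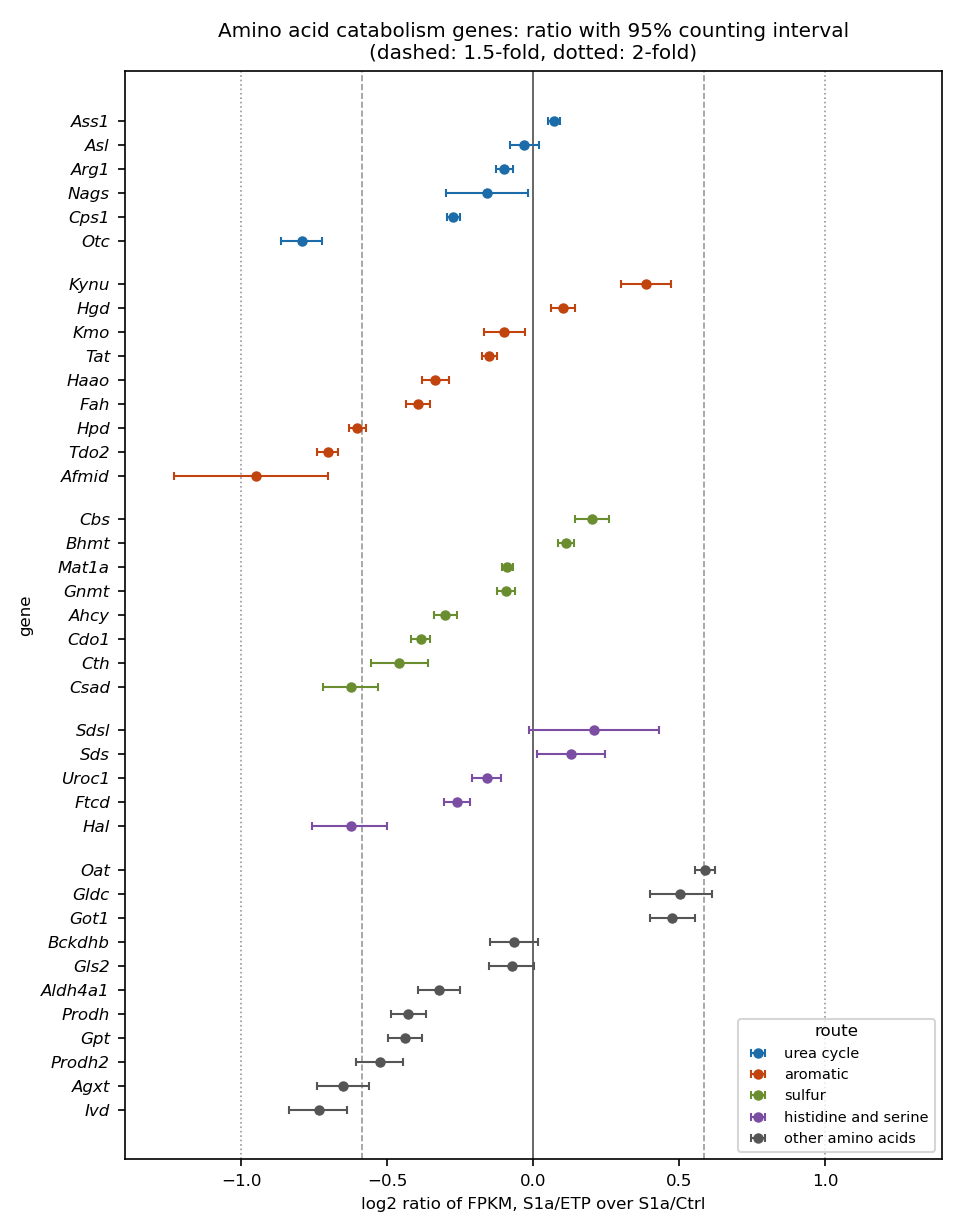
Log2 ratio of FPKM, S1a/ETP over S1a/Ctrl (x axis), for each of the 39 genes (y axis), colored by route, with bars for the 95% counting interval, which does not include the spread between mice. *Afmid*, *Otc*, *Ivd* and *Tdo2* lie farthest to the left and *Oat* farthest to the right, and no gene reaches the dotted 2-fold lines. Setting the hepatocyte markers to 0 would move every point 0.30 to the right.

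None of the 39 genes differed by 2-fold, a size that 6.42% of the 16042 genes averaging 0.1 FPKM or more passed upward and 6.25% downward. At least 1.5-fold lower were *Afmid*, *Otc*, *Ivd*, *Tdo2*, *Agxt*, *Csad*, *Hal* and *Hpd*, which is 8 of 39 or 20.5%, against 11.3% of the 16042 genes. Only *Oat* was at least 1.5-fold higher, 2.56% of the 39 genes against 13.2%. That background holds many genes with few reads. Among genes averaging 10 FPKM or more, 2.93% were at least 1.5-fold lower and 2.93% higher, and of the 38 members at that level 7 were lower (18.4%) and 1 higher (2.63%). At an average of 50 FPKM or more, a level also added after the values were seen, 4.43% of genes were lower and 3.17% higher, against 5 of 31 members lower (16.1%) and 1 higher (3.23%). A smaller fold of 1.25, added after the values were seen, was passed downward by 15 of the 38 genes averaging 10 FPKM or more (39.5%) and upward by 4 (10.5%), with backgrounds of 11.4% and 11.1%. At 50 FPKM or more the same fold was passed downward by 12 of 31 (38.7%) and upward by 2 (6.45%), with backgrounds of 16.5% and 9.26%. Near the 1.5-fold line of 0.58, *Oat* at 0.59 and *Hpd* at −0.60 lay just beyond it, and *Prodh2* at −0.53 and *Gldc* at 0.50 just short of it. In TPM 4 of the 8 lower genes stayed past 1.5-fold, and 1, *Afmid*, did after scaling to the hepatocyte markers, while all 8 kept a negative ratio under each scaling. *Oat* kept a positive ratio under each, from 0.56 to 0.89.

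**Figure D2:**
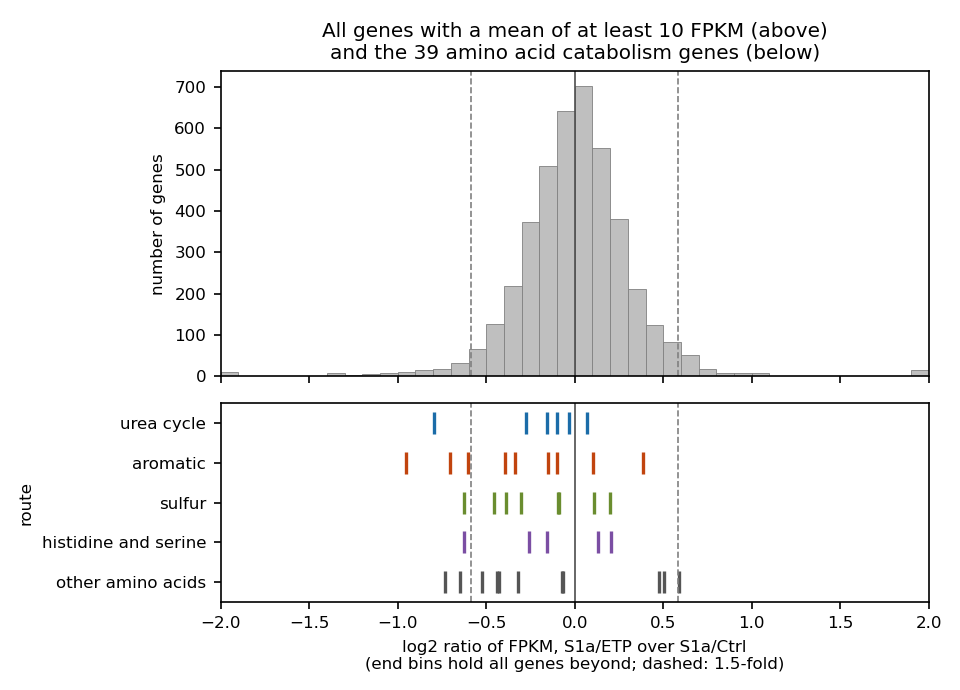
Above, the number of genes (y axis) by log2 ratio of FPKM, S1a/ETP over S1a/Ctrl (x axis), for the 4228 genes averaging 10 FPKM or more. Below, 1 tick per member in each of the 5 routes. The bulk of the genes is centered near 0, with 2.93% past each dashed 1.5-fold line, whereas the ticks spread to the left in all routes, by less in the urea cycle than in the aromatic route. After scaling to the hepatocyte markers all values would be 0.30 higher.

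To show the sequence before the start sites of genes that differed, the 250 bases upstream in RefSeq (GRCm38.p6, the assembly of mm10) are printed for *Otc*, *Tdo2*, *Hal* and *Oat*, picked after their values were seen. *Otc*, *Tdo2* and *Hal* were lower in S1a/ETP and *Oat* was the gene at least 1.5-fold higher. Windows were found for 28 of the 39 genes, among them all 9 past 1.5-fold. Capitals mark 2 of the motifs searched on both strands, TTNNGNAA (a loose C/EBP site) and TATAAA (the TATA box).
Otc, chrX:10252055-10252304, plus strand: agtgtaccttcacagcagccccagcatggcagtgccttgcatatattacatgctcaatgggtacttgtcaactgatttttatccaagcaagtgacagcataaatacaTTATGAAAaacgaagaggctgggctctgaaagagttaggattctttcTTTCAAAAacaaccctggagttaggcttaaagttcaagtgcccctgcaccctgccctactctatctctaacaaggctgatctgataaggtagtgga
Tdo2, chr3:81975729-81975978, minus strand: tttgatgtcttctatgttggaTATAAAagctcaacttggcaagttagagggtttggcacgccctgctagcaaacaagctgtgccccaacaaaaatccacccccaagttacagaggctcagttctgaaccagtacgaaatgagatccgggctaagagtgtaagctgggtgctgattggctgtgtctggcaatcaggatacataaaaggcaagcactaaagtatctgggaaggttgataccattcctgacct
Hal, chr10:93488518-93488767, plus strand: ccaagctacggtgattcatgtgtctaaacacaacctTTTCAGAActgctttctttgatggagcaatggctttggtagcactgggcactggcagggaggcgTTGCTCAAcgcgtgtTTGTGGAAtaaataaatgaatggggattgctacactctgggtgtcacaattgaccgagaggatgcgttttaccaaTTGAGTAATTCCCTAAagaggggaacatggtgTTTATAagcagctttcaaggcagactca
Oat, chr7:132576399-132576648, minus strand: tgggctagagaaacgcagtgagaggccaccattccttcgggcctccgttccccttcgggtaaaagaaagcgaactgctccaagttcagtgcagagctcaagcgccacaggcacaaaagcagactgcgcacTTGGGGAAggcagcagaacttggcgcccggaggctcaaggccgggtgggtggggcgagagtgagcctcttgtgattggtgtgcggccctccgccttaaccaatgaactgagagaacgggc

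The C/EBP motif was in the windows of 10 of the 28 genes, or 35.7%, and in 36.8% of all 32851 promoter windows of that length. Of the 9 genes past 1.5-fold, 5 had it, *Otc*, *Hal*, *Csad*, *Ivd* and *Oat*, of which *Oat* is higher and the others lower. *Csad* had 2 windows, and its match lay in the one 16009 bases from the gene start in the deposited table. The *Csad* window at that start held none of the motifs. *Hal* had 5 matches, the nearest 52 bases before the start site, as well as a TATA box 28 bases before it. The TATA box was in 4 of the 28 windows, or 14.3%, and in 12.4% of all windows. Of the other motifs, TGACG was found in 2 windows (the distant one of *Csad* and that of *Ftcd*), the short glucocorticoid receptor motif TGTTCT in 3 (*Agxt*, *Bckdhb* and *Haao*), the sterol response element TCACNCCAC in 1 (*Gnmt*) and the E-box CACGTG in 2 (*Ass1* and *Cbs*). They occur in 17.8%, 16.1%, 1.05% and 6.02% of all windows. The cAMP response element TGACGTCA, the C/EBP palindrome TTGCGCAA and the HNF4 element CAAAGTCCA were in none of the 28 windows and in 1.55%, 0.164% and 0.384% of all. The loose C/EBP motif can overlap its palindrome, and TGACG lies within TGACGTCA. The full glucocorticoid response element was searched as well, and was found in 3 windows and in none of the 28. TGTTCT lies within that response element. These are letter matches and no binding was measured.

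In the urea cycle, *Otc* stood apart from the other enzymes. *Otc*, on chromosome X from 10252305 to 10321024, encodes ornithine transcarbamylase, which joins carbamoyl phosphate to ornithine in the mitochondria. It was at 55.2 FPKM in S1a/ETP and 95.7 FPKM in S1a/Ctrl, on 2406 and 5521 reads, a ratio of −0.79 [−0.86, −0.72]. The S1a/ETP pool thus held 57.7% of the S1a/Ctrl level. The upstream window of *Otc*, printed above, held 2 matches of the loose C/EBP motif, which is in 36.8% of all promoter windows. *Cps1* (chromosome 1, 67123026 to 67231259), the carbamoyl phosphate synthetase that admits ammonia to the cycle, was at 320.1 FPKM in S1a/ETP and 387 FPKM in S1a/Ctrl, a ratio of −0.27 [−0.30, −0.25]. The cytosolic enzymes differed less between the pools. *Ass1*, argininosuccinate synthetase and the most abundant of the 39 genes in both pools, was at 1280.0 FPKM in S1a/ETP and 1219 FPKM in S1a/Ctrl, on 31561 and 39796 reads, a ratio of 0.070 [0.049, 0.091]. *Arg1*, the arginase that releases urea, was at 782 FPKM in S1a/ETP and 837 FPKM in S1a/Ctrl, on 16783 and 23788 reads, a ratio of −0.099 [−0.13, −0.070]. *Asl*, the lyase that splits argininosuccinate, was at 159 FPKM in S1a/ETP and 162 FPKM in S1a/Ctrl, which did not differ beyond counting error. *Nags*, which makes the N-acetylglutamate that switches on CPS1, was at 17.8 FPKM in S1a/ETP and 19.8 FPKM in S1a/Ctrl, a ratio of −0.16 [−0.30, −0.019]. Summed over the 6 genes, FPKM was 2614 in S1a/ETP and 2722 in S1a/Ctrl, a log2 ratio of −0.058 that was 0.014 in TPM. For pairs of genes chosen after their values were seen, the ratio of levels is given per length. *Otc* stood at 0.172 times the level of *Cps1* in S1a/ETP and at 0.247 in S1a/Ctrl.

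*Arg1* is also a gene of myeloid cells, whose markers were higher in the S1a/ETP pool. The 10 neutrophil markers summed to 369 FPKM in S1a/ETP and 5.73 FPKM in S1a/Ctrl, where *Ngp*, *Camp*, *Elane*, *Mpo* and *Cxcr2* had no read. All 10 macrophage markers were higher and summed to 219 FPKM in S1a/ETP and 166 FPKM in S1a/Ctrl, with none at 0. The part of these cells in the level of *Arg1* was not tested.

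**Figure D3:**
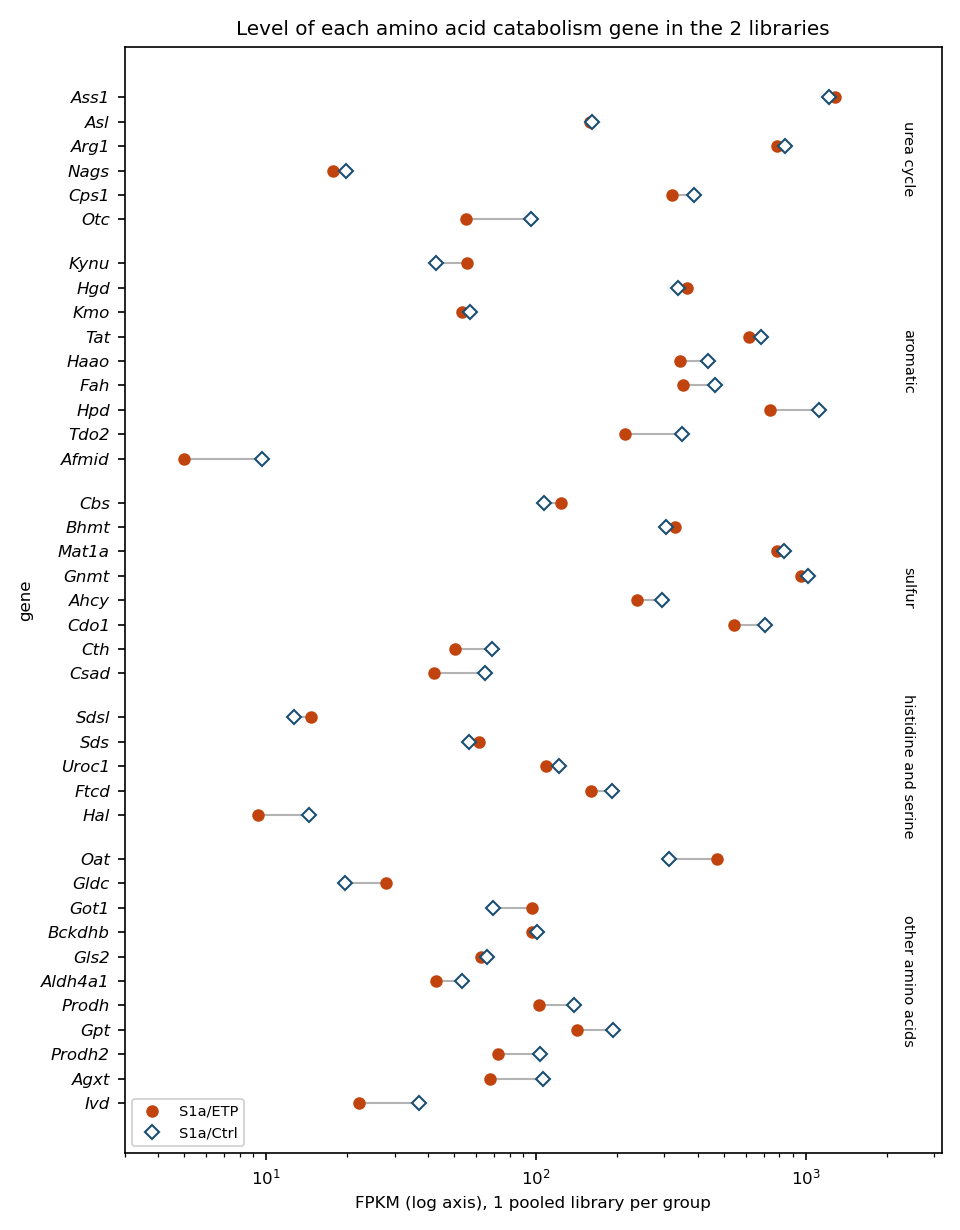
FPKM on a log axis (x axis) of each of the 39 genes (y axis) in S1a/ETP (filled circles) and S1a/Ctrl (open diamonds), 1 pooled library each. Levels span from 4.97 FPKM for *Afmid* to 1280.0 FPKM for *Ass1* in S1a/ETP, and the gap between the pools is wide for *Otc*, *Hpd*, *Tdo2* and *Oat* and narrow for *Asl*, *Arg1* and *Mat1a*.

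Ornithine has another mitochondrial user, and its gene went the other way. *Oat* (chromosome 7, 132557475 to 132576398) encodes ornithine aminotransferase, which converts ornithine to glutamate semialdehyde and is a pericentral enzyme. It was at 470 FPKM in S1a/ETP and 313 FPKM in S1a/Ctrl, on 14715 and 12965 reads, a ratio of 0.59 [0.55, 0.62]. *Oat* thus had more reads in S1a/ETP although that library was the shallower. The table places *Oat* wholly inside *Fgfr2* on the same strand, which was at 7.70 FPKM in S1a/ETP and 7.98 FPKM in S1a/Ctrl. Per length, *Oat* was 8.51 times the level of *Otc* in S1a/ETP and 3.27 times in S1a/Ctrl. The mitochondrial ornithine carrier *Slc25a15*, from the list of carriers, was at 79.8 FPKM in S1a/ETP and 56.5 FPKM in S1a/Ctrl, a ratio of 0.50 [0.43, 0.56]. *Glul*, the glutamine synthetase of pericentral hepatocytes, was at 324 FPKM in S1a/ETP and 267 FPKM in S1a/Ctrl, a ratio of 0.28 [0.25, 0.31], whereas the pericentral glutamate transporter gene *Slc1a2* was at −0.22 [−0.31, −0.13]. Of the members listed here as periportal, *Cps1*, *Ass1*, *Asl*, *Arg1*, *Gls2*, *Sds*, *Hal* and *Uroc1*, 1 of 8 was at least 1.5-fold lower. At least that much lower were 11.3% of all genes and 2.93% of those averaging 10 FPKM or more, a level all 8 reached. The median ratio of the 8 was −0.086, and that of the other 31 was −0.30, a difference that was not tested. Those 31 include the urea cycle genes *Otc*, at −0.79, and *Nags*, at −0.16. With the hepatocyte markers set to 0 the periportal median would be above 0 and that of the other 31 near 0.

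The aromatic route covers the breakdown of tryptophan and tyrosine. Of its genes 3 of 9 were at least 1.5-fold lower, where 11.3% of all genes and 2.93% of those averaging 10 FPKM or more were. One of the 3, *Afmid*, averaged 7.33 FPKM and so lies below the level of that second share. Its 9 genes had a median ratio of −0.34 and summed to 2738 FPKM in S1a/ETP and 3494 FPKM in S1a/Ctrl. *Tdo2* (chromosome 3, 81957090 to 81975750), the tryptophan dioxygenase that opens the indole ring as the first step of the kynurenine pathway, was at 213 FPKM in S1a/ETP and 348 FPKM in S1a/Ctrl. Its ratio was −0.70 [−0.74, −0.67], and its reads were 9244 and 19944. *Afmid* (chromosome 11, 117825924 to 117839908), the formamidase of the next step, had the lowest ratio of the 39 genes. It was at 4.97 FPKM in S1a/ETP and 9.69 FPKM in S1a/Ctrl, on 168 and 434 reads, a ratio of −0.95 [−1.23, −0.70]. *Afmid* shares 169 bases with the gene of thymidine kinase, *Tk1*, on the opposite strand, which was at −0.31. *Tk1* had 391 reads in S1a/ETP and 641 in S1a/Ctrl, more than *Afmid*. Without a known strand setting the reads of the 2 genes cannot be told apart in the shared bases. *Afmid* also overlaps the protein-coding gene *Gm20708* on the same strand over 13981 bases, and *Gm20708* had 0 reads in both pools. How reads in those bases were assigned is not known, which limits the ratio of *Afmid*. In all, 13 of the 39 genes overlap another gene of the table, 11 of them one with reads.

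Further along the kynurenine pathway the genes split in direction. *Kmo*, which hydroxylates kynurenine on the mitochondrial outer membrane, was at 53.5 FPKM in S1a/ETP and 57.3 FPKM in S1a/Ctrl, a ratio of −0.099 [−0.17, −0.030], and it overlaps *Fh1* on the opposite strand over 5255 bases. *Kynu*, the kynureninase that cleaves off alanine, was higher at 55.8 FPKM in S1a/ETP against 42.7 FPKM in S1a/Ctrl, on 2253 and 2281 reads, a ratio of 0.39 [0.30, 0.47]. *Haao*, the dioxygenase that leads toward NAD, was lower at 343 FPKM in S1a/ETP against 433 FPKM in S1a/Ctrl, a ratio of −0.34 [−0.38, −0.29]. *Kynu* stood at 0.261 times the level of *Tdo2* in S1a/ETP and at 0.123 in S1a/Ctrl. Macrophages also express *Kynu* and *Kmo*, and the 10 macrophage markers had a median ratio of 0.43. The part of macrophages in these values was not tested.

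Among the tyrosine enzymes the second step was the lowest. *Hpd* (chromosome 5, 123171807 to 123182725), the hydroxyphenylpyruvate dioxygenase, was at 736 FPKM in S1a/ETP and 1118 FPKM in S1a/Ctrl, on 15009 and 30173 reads, a ratio of −0.60 [−0.63, −0.57]. *Tat*, the hormone-controlled tyrosine aminotransferase before it, was at 618 FPKM in S1a/ETP and 686 FPKM in S1a/Ctrl, on 21324 and 31334 reads, a ratio of −0.15 [−0.18, −0.13]. *Hgd*, the homogentisate dioxygenase after it, was slightly higher at 362 FPKM in S1a/ETP against 338 FPKM in S1a/Ctrl, a ratio of 0.10 [0.061, 0.14]. *Fah*, whose fumarylacetoacetate hydrolase ends the pathway, was lower, at 351 FPKM in S1a/ETP and 461 FPKM in S1a/Ctrl, a ratio of −0.40 [−0.44, −0.35]. *Hpd* was thus 2.03 times the level of *Hgd* in S1a/ETP and 3.31 times in S1a/Ctrl.

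The sulfur route kept its methionine cycle close to level apart from *Ahcy*, and had lower values after *Cbs*, toward cysteine and taurine. *Gnmt* and *Mat1a*, which use and make S-adenosylmethionine, were the most abundant, with *Gnmt* at 960.0 FPKM in S1a/ETP and 1024 FPKM in S1a/Ctrl, on 14446 and 20406 reads, a ratio of −0.094 [−0.12, −0.063]. *Mat1a* was at 781 FPKM in S1a/ETP and 831 FPKM in S1a/Ctrl, on 36429 and 51277 reads, a ratio of −0.089 [−0.11, −0.069]. *Ahcy*, which removes S-adenosylhomocysteine, was lower at −0.30 [−0.34, −0.26], and *Bhmt*, which returns homocysteine to methionine with betaine, was at 0.11 [0.083, 0.14]. The first step of transsulfuration, *Cbs*, had the highest ratio of the route, with 124 FPKM in S1a/ETP and 108 FPKM in S1a/Ctrl, on 4490 and 5171 reads, a ratio of 0.20 [0.14, 0.26]. The second step, the cystathionine lyase *Cth*, was lower, with 50.3 FPKM in S1a/ETP and 69.2 FPKM in S1a/Ctrl, a ratio of −0.46 [−0.56, −0.36]. *Csad* (chromosome 15, 102176998 to 102189043), the decarboxylase on the way to taurine, was the lowest, at 42.2 FPKM in S1a/ETP and 65.1 FPKM in S1a/Ctrl, on 1389 and 2838 reads, a ratio of −0.63 [−0.72, −0.53]. *Cdo1*, the cysteine dioxygenase before it, was at 541 FPKM in S1a/ETP and 707 FPKM in S1a/Ctrl, a ratio of −0.39 [−0.42, −0.35]. Over the 8 genes the median was −0.20, and it was 0.10 after scaling to the hepatocyte markers. The 4 genes from *Cbs* to *Csad* summed to 757 FPKM in S1a/ETP and 949 FPKM in S1a/Ctrl.

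The 3 members of histidine breakdown were lower, whereas the serine dehydratases were not. *Hal* (chromosome 10, 93488768 to 93519304), the histidine ammonia lyase of the first step, was at 9.34 FPKM in S1a/ETP and 14.4 FPKM in S1a/Ctrl, on 722 and 1478 reads, a ratio of −0.62 [−0.76, −0.50]. *Uroc1*, the urocanase, was at 109 FPKM in S1a/ETP and 122 FPKM in S1a/Ctrl, on 5494 and 8117 reads, a ratio of −0.16 [−0.21, −0.11]. *Ftcd*, which passes the formimino group to folate, was at 160 FPKM in S1a/ETP and 191 FPKM in S1a/Ctrl, on 6768 and 10734 reads, a ratio of −0.26 [−0.30, −0.22]. After scaling to the hepatocyte markers *Hal* alone of the 3 would stay below 0. *Sds*, the serine dehydratase of gluconeogenesis from serine, was at 61.8 FPKM in S1a/ETP and 56.5 FPKM in S1a/Ctrl, a ratio of 0.13 [0.012, 0.25]. Its paralog *Sdsl*, 3721 bases away on chromosome 5, was at 14.7 FPKM in S1a/ETP and 12.7 FPKM in S1a/Ctrl, on 316 and 362 reads, a ratio of 0.21 [−0.014, 0.43] whose interval holds 0. *Sds* overlaps *Plbd2*, at 0.26, on the opposite strand.

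Among the other amino acids, transaminases and glycine cleavage were divided and proline oxidation was lower throughout. *Got1*, the cytosolic aspartate aminotransferase, was at 96.9 FPKM in S1a/ETP and 69.6 FPKM in S1a/Ctrl, a ratio of 0.48 [0.40, 0.55]. *Gpt*, the cytosolic alanine aminotransferase, was at 142 FPKM in S1a/ETP and 193 FPKM in S1a/Ctrl, on 3618 and 6497 reads, a ratio of −0.44 [−0.50, −0.38]. *Got1* was thus 0.681 times the level of *Gpt* in S1a/ETP and 0.361 in S1a/Ctrl. The 2 mitochondrial partners *Got2* and *Gpt2*, which are not members, were at −0.0082 and −0.047. *Agxt* (chromosome 1, 93135240 to 93145421), the alanine-glyoxylate aminotransferase that detoxifies glyoxylate, was at 68.0 FPKM in S1a/ETP and 107 FPKM in S1a/Ctrl, on 1535 and 3191 reads, a ratio of −0.65 [−0.74, −0.56]. *Gldc*, the glycine decarboxylase, was higher, at 28.0 FPKM in S1a/ETP and 19.7 FPKM in S1a/Ctrl, a ratio of 0.50 [0.40, 0.61]. The other subunit genes of the glycine cleavage system, *Amt*, *Gcsh* and *Dld*, were at −0.16, −0.0058 and −0.012, with intervals that hold 0.

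*Prodh*, proline dehydrogenase, was at 103 FPKM in S1a/ETP and 139 FPKM in S1a/Ctrl, a ratio of −0.43 [−0.49, −0.37], and it overlaps *Dgcr6*, at −0.13, on the opposite strand. *Prodh2*, which oxidizes hydroxyproline, was at 72.3 FPKM in S1a/ETP and 104 FPKM in S1a/Ctrl, a ratio of −0.53 [−0.61, −0.45]. *Aldh4a1*, the dehydrogenase that both share downstream, was at −0.32 [−0.39, −0.25]. Branched chain breakdown differed between its members. *Ivd* (chromosome 2, 118861954 to 118882909), the isovaleryl-CoA dehydrogenase of leucine, was at 22.1 FPKM in S1a/ETP and 36.9 FPKM in S1a/Ctrl, on 1180 and 2604 reads, a ratio of −0.73 [−0.84, −0.64], and *Bckdhb*, a subunit of the branched chain ketoacid dehydrogenase, was at −0.067 with an interval that holds 0. The glutaminase gene *Gls2* was at 62.7 FPKM in S1a/ETP and 66.0 FPKM in S1a/Ctrl, again within counting error. Over the 11 genes FPKM summed to 1204 in S1a/ETP and 1202 in S1a/Ctrl, of which *Oat* was the largest item, while their median ratio was −0.32. Several of these enzymes are also found in skeletal muscle. The 12 muscle markers summed to 0.601 FPKM in S1a/ETP, where 8 had no read, and to 125 FPKM in S1a/Ctrl, where 1 (*Tnnc2*) had none. The part of muscle RNA in the ratios was not tested.

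Enzymes of the same routes outside the 39 genes were read from 5 further lists with 67 entries. Of the 66 that passed the filter, 48 were lower in S1a/ETP and 18 higher, with a median of −0.12, and 2 were at least 1.5-fold lower and 3 higher. Over all genes averaging 0.1 FPKM or more, 7501 were lower and 8541 higher, and 11.3% were at least 1.5-fold lower and 13.2% higher, so that neither count past 1.5-fold is above the share of all genes. Among 10 further aromatic enzymes *Kyat3* and *Aadat*, which transaminate kynurenine to kynurenic acid, were the 2 that were 1.5-fold lower. *Kyat3* was at 20.5 FPKM in S1a/ETP and 37.6 FPKM in S1a/Ctrl, a ratio of −0.87 on 671 and 1624 reads, and *Aadat* was at −0.61 [−0.76, −0.46]. *Acmsd*, which turns the kynurenine pathway away from NAD, was the highest at 0.57 [0.33, 0.83], on 287 and 254 reads, and *Qprt*, which leads to NAD, was at 0.016.

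Of 21 further branched chain and lysine enzymes, 20 were lower and 1, *Acad8*, was higher, with a median of −0.27 and none past 1.5-fold. In each direction 2.93% of genes averaging 10 FPKM or more passed that fold. At 0.1 FPKM or more 11.3% passed it downward and 13.2% upward. *Aldh6a1*, the methylmalonate semialdehyde dehydrogenase of valine, was the lowest at 68.6 FPKM in S1a/ETP and 98.2 FPKM in S1a/Ctrl, a ratio of −0.52 [−0.58, −0.46], and *Mcee*, the methylmalonyl-CoA epimerase, followed at −0.51 [−0.66, −0.36]. *Dbt*, the core gene of the branched chain ketoacid dehydrogenase, was at −0.42, *Bckdha* at −0.12 and *Pcca*, a subunit of propionyl-CoA carboxylase, at −0.023. All these values are 0.30 higher once the hepatocyte markers are set to 0. Of the 11 further glycine, serine and histidine enzymes that passed the filter, *Amdhd1*, which acts between *Uroc1* and *Ftcd* in histidine breakdown, was the lowest at −0.57 [−0.69, −0.45]. *Hao1*, the glycolate oxidase, followed at −0.24, and *Shmt2*, the mitochondrial serine hydroxymethyltransferase, and *Srr*, serine racemase, were the highest at 0.17 and 0.065. Further sulfur and one-carbon enzymes had a median of −0.0099. *Sardh*, sarcosine dehydrogenase, was at −0.38, *Suox*, sulfite oxidase, at −0.17 and *Mtr*, methionine synthase, at 0.54 on 134 and 119 reads. Glutamate and ammonia enzymes had a median of 0.0059, the lowest being *Aspg*, an asparaginase, at −0.28 and *Hoga1*, of hydroxyproline breakdown, also at −0.28. *Glud1*, the glutamate dehydrogenase that releases ammonia, was at 267 FPKM in S1a/ETP and 245 FPKM in S1a/Ctrl, a ratio of 0.13. *Arg2*, the mitochondrial arginase, was the only gene of the 5 lists past 2-fold, at 1.44 [0.55, 2.90] on 24 and 10 reads.

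**Figure D4:**
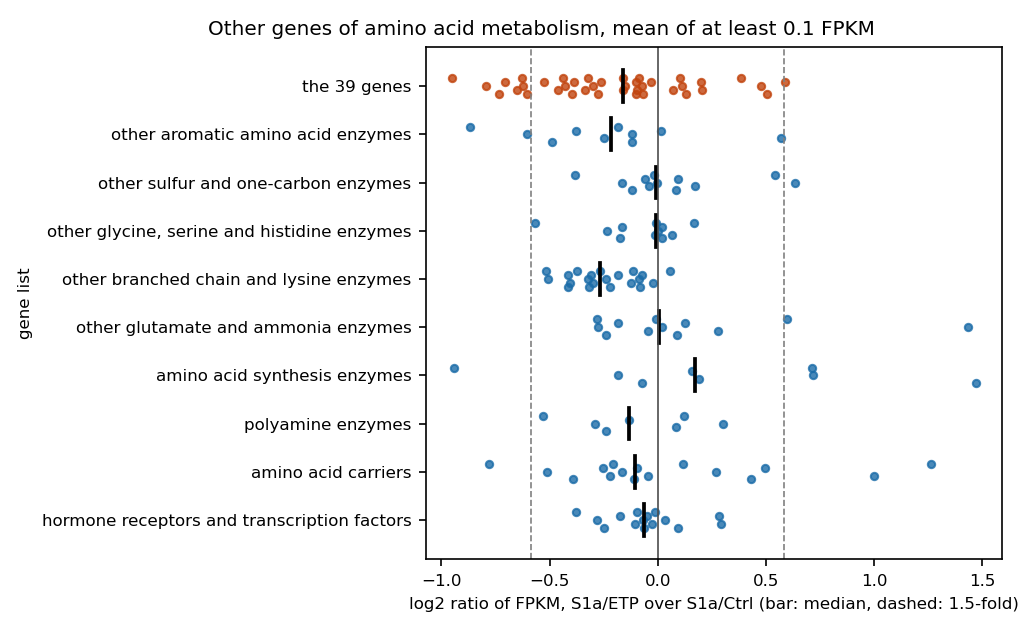
Log2 ratio of FPKM, S1a/ETP over S1a/Ctrl (x axis), for the 39 genes and for 9 lists of further genes of amino acid metabolism (y axis), 1 point per gene averaging 0.1 FPKM or more and a bar at the median. The medians of the aromatic (−0.22) and branched chain lists (−0.27) lie to the left like that of the 39 genes (−0.16), and the synthesis list (0.17) to the right. With hepatocyte markers set to 0 all points move 0.30 to the right.

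Carriers of amino acids had a median of −0.10 over 16 genes. *Slc25a15* and the mitochondrial glutamate carrier *Slc25a22*, at 0.43 [0.35, 0.51], were the 2 highest among those averaging 1 FPKM or more. The lowest at that level were *Slc7a2*, which brings arginine into the hepatocyte, at −0.39 [−0.44, −0.34], and *Slc38a2*, a transporter of small neutral amino acids, at −0.25. The citrin gene *Slc25a13*, which sends aspartate out of the mitochondria for argininosuccinate synthesis, was at 72.1 FPKM in S1a/ETP and 74.3 FPKM in S1a/Ctrl, within counting error.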

How the data were processed

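Liver RNA of S1a/ETP and S1a/Ctrl mice was sequenced as 1 pooled library per group. The authors deposited FPKM values with gene lengths and coordinates. Tools named in the submitters' processing notes, without roles, include HTSeq 0.6.1, STAR, edgeR 3.16.5 and StringTie 1.3.3b, with mm10 as the build. For the annotation release and the strand setting, nothing was given in the sources used here.

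Depth and reads were recovered from FPKM and length. Ratios used a pseudocount of 0.1 FPKM and a minimum average of 0.1 FPKM, which all 39 genes passed. With 1 library per group no test was run, and genes are described against the share of all genes past the same fold. The steps were tested on simulated data. Alternatives were other pseudocounts, filters and scalings. Members, lists and folds were chosen with earlier results of these data known. Values are given in full for members past 1.5-fold and for the 2 most abundant, highest and lowest of each route. From each further list the 2 highest and 2 lowest genes averaging 1 FPKM or more are named, except that some genes and 1 motif searched are not reported here, and any gene named beside these was chosen after its value was seen. The lists hold 9 groups of amino acid genes and 11 of cell type markers. Of their 201 entries, 6 were matched by gene ID or older symbol and 1, *Tf*, was not matched. Python 3.11.15, numpy 2.4.6, pandas 2.3.3, scipy 1.17.1 and matplotlib 3.10.9 were used.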

Additional observations from a re-analysis of the deposited data

How the results depend on the processing

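No paired analysis was possible because each group is 1 library. Pseudocounts of 1 and 0.01 FPKM moved none of the 39 ratios beyond its counting interval. The filter does not enter a ratio, so leaving it out or raising it to 1 FPKM could not move one, and all 39 genes passed each. The count of 0 genes past 2-fold held under every setting tried. With a pseudocount of 1, *Hal* at −0.58 was short of 1.5-fold and 7 genes were lower. In TPM 4 genes were at least 1.5-fold lower. The medians were then −0.087 over the 39 genes, −0.057 in the urea cycle, −0.26 in the aromatic and −0.13 in the sulfur route. The log2 ratios of summed FPKM were 0.014 in the urea cycle, −0.28 aromatic, −0.078 sulfur, −0.090 histidine and serine, and 0.075 other. Without the 100 most abundant genes in the total these sums were −0.028, −0.32, −0.12, −0.13 and 0.033. With the hepatocyte markers set to 0, 1 gene was 1.5-fold lower and 4 were higher, and the medians were 0.14 over the 39 genes, 0.17, −0.035, 0.10, 0.14 and −0.022 by route in the same order. With the median ratio of genes averaging 1 FPKM or more set to 0, 0 genes were 1.5-fold higher. At 1.25-fold, added after the data were seen, 16 were lower and 4 higher. Depth bears mainly on *Afmid*, the gene with the fewest reads in S1a/ETP. Counting error does not include differences between mice, which 1 pool per group cannot show.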

Other observations

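Genes of amino acid synthesis were expressed far below those of breakdown. The 8 genes of this list summed to 31.8 FPKM in S1a/ETP and 32.2 FPKM in S1a/Ctrl, most of it *Pycr3*, a pyrroline-5-carboxylate reductase, at 20.9 FPKM in S1a/ETP and 23.7 FPKM in S1a/Ctrl. *Aldh18a1*, which starts proline synthesis from glutamate, had 74 reads in S1a/ETP and 31 in S1a/Ctrl, a log2 ratio of 1.47 [1.04, 2.31]. *Asns*, the asparagine synthetase, had 18 and 13 reads, with an interval of [−0.24, 2.02] that holds 0. These low-level genes were chosen after their values were seen. Of those averaging 1 FPKM or more, *Pycr3* was at −0.18 and *Psph*, the phosphatase of serine synthesis, at 0.19. *Atf4*, a transcription factor of amino acid shortage, was at 65.3 FPKM in S1a/ETP and 53.3 FPKM in S1a/Ctrl, a ratio of 0.29 [0.19, 0.39].

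Of 15 genes of hormone receptors and transcription factors that act on amino acid enzymes, none differed by 1.5-fold and the median was −0.063. Of genes averaging 0.1 FPKM or more, 11.3% were that much lower and 13.2% higher. At 10 FPKM or more the share was 2.93% in each direction, so a count of 0 in a list this short says little. *Klf15*, a factor that drives amino acid breakdown in fasting, was the lowest at 39.9 FPKM in S1a/ETP and 52.0 FPKM in S1a/Ctrl, a ratio of −0.38 [−0.48, −0.28]. The glucocorticoid receptor gene *Nr3c1* followed at −0.28, while the glucagon receptor gene *Gcgr* was at −0.10, *Cebpa* at −0.063 and *Hnf4a* at 0.035. The 7 genes of the polyamine list had a median of −0.13. Among them *Odc1*, the ornithine decarboxylase, was at 26.7 FPKM in S1a/ETP and 24.6 FPKM in S1a/Ctrl, a ratio of 0.12 with an interval that holds 0. *Srm*, spermidine synthase, was the highest at 0.30 [0.098, 0.51] and *Sms*, spermine synthase, the lowest at −0.53 on 57 and 112 reads, followed by *Paox*, a polyamine oxidase, at −0.29.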
